A study of Mus musculus with 2 samples.

Results

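In the genome of mature olfactory sensory neurons, 1190 faint distal boundaries were found, the weakest borders between contact domains that lie far from protein-coding promoters. They were chosen by 3 conditions, of which the first uses a measured value: a boundary strength below 0.3 in the authors' deposited score, no 5′ end of a protein-coding gene within 50 kb of the midpoint, and a position outside coding genes of 500 kb or more. The list holds 8058 boundaries, so the faint distal ones are 14.8% of all. Of the 2045 boundaries below 0.3, 722 had a coding 5′ end within 50 kb and 133 lay in long coding genes, and these 855 form the other faint boundaries used for comparison. All 1190 carried the authors' label Weak.

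The borders came from in situ Hi-C, in which crosslinked chromatin is cut (here with DpnII), and DNA ends that lie close together are joined and sequenced. The cells were mature olfactory sensory neurons taken by cell sorting (FACS) out of the olfactory epithelium of untreated adult OMP-GFP mice, of mixed sex and of the strain 129P2/OlaHsd. OMP-GFP animals carry a green fluorescent protein driven from the olfactory marker protein gene, which is active in mature neurons. The 2 biological replicates of this 1 group, made from 3000000 and 1500000 cells fixed in 1% formaldehyde, were pooled by the authors into 1 contact map before boundaries were called. No value below therefore has a spread between replicates, and no test between conditions exists. The contact depth is unknown, since contact matrices and insulation tracks were not used here, and markers of the cell type cannot be read from a boundary list.

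A boundary is a place across which neighbouring stretches of chromatin touch each other less often than on either side. Many boundaries form where the zinc finger protein CTCF, bound to an oriented motif, stops the loop-extruding cohesin complex, and others lie at active promoters. Between genes, and above all in long gene deserts, much mouse DNA consists of copies of LINE-1 (L1), a retrotransposon whose second open reading frame encodes a reverse transcriptase. Sequenced reads from near-identical copies cannot be placed at a unique position.

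The sequences that recurred beside faint distal boundaries are shown first, because the clearest feature of these boundaries lay in them. A script counted every word of 50 bases in the 5 kb bins that lie 10 and 15 kb from each boundary bin and ranked them by the number of boundaries beside which they occurred. These distances run from the middle of the boundary bin to the middle of the other bin, and the whole bin was searched. A word counted as 10 to 15 kb away can thus lie somewhat nearer or farther. The same holds for every distance range of words and multicopy bins below. A pair of the most frequent words that do not overlap each other is printed 5′ to 3′ from GRCm38.p6, both on the same strand relative to each other. The capitals mark the word that was used to set this strand. From general knowledge of the element both read as coding sequence of the second L1 open reading frame, and no repeat annotation was used here.

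L1 word A: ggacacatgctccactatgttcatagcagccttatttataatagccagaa
L1 word B: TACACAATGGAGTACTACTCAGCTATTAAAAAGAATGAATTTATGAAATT

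Word A occurred 20210 times on the chromosomes analysed and word B 20468 times. Word B lay 10 to 15 kb from 470 of the 1190 faint distal boundaries (39.5%, 95% exact Clopper-Pearson interval 36.7 to 42.3%). Among all 262388 bins that meet the same gene conditions, here called distal bins, 18.4% had word B at this distance. These intervals cover the counting of boundaries only. The words and the distance of 10 to 15 kb were chosen from these same boundaries after the values were seen, so the first count is a description. In the 1187 distal boundaries over 0.5, which took no part in choosing the words, 20.5% had word B at 10 to 15 kb, and in the 874 distal boundaries of 0.3 to 0.5 it was 35.9%. At 25 to 30 kb from the faint distal boundaries the share was 20.8%, against 18.4% of distal bins. At 0 to 5 kb it was 18.3%, against 14.3% of distal bins. The word pointed away from the boundary in 281 copies and toward it in 295.

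At the boundary at chr1:79265001-79270000 (strength 0.2004), which lies between Kcne4, a potassium channel subunit gene, and Scg2, the secretogranin II gene, word B lay on both sides. Its copies were at chr1:79256712-79256761 on the plus strand, an offset of -10.8 kb, and at chr1:79276803-79276852 on the minus strand, an offset of 9.33 kb. At chr15:17145001-17150000 (strength 0.2027), between the cadherin genes Cdh9 and Cdh10, copies on the minus strand lay at offsets of -8.50 and 9.03 kb. Offsets run from the middle of the boundary bin to the middle of the word.

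To measure repeated sequence without choosing words, each 5 kb bin was called multicopy when over 50% of its 50-base words, sampled every 25 bases, occurred more than once on chromosomes 1 to 19 and X. A multicopy bin lay 10 to 15 kb from 661 of the 1190 faint distal boundaries (55.5%, interval 52.7 to 58.4%). The same held for 20.5% of distal bins, 49.4% of distal boundaries of 0.3 to 0.5 (46.1 to 52.8%), 31.9% of distal boundaries over 0.5 (29.3 to 34.7%) and 30.5% of all boundaries. In the other faint boundaries it was 27.1% (24.18 to 30.25%). The multicopy bin lay on the side of lower coordinates only at 290 boundaries, on the side of higher coordinates only at 281, on both at 90 and on neither at 529. The sides were nearly even.

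The position of these bins was sharp. At an offset of -10 kb 24.5% of the bins around faint distal boundaries were multicopy, and at 10 kb 25.6%. At -15 and 15 kb the shares were 17.1 and 14.9%. In the boundary bin itself 5.29% were multicopy, and at -5 and 5 kb 3.87 and 4.12%, below the 7.74% of distal bins. From 35 to 95 kb on either side the mean share was 4.46%. It then stepped up: from 4.12% at -95 kb to 7.40% at -100 kb, and from 4.29% at 95 kb to 7.40% at 100 kb. Over 100 to 150 kb it was 7.58%, near the distal bins.

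**Figure D1:**
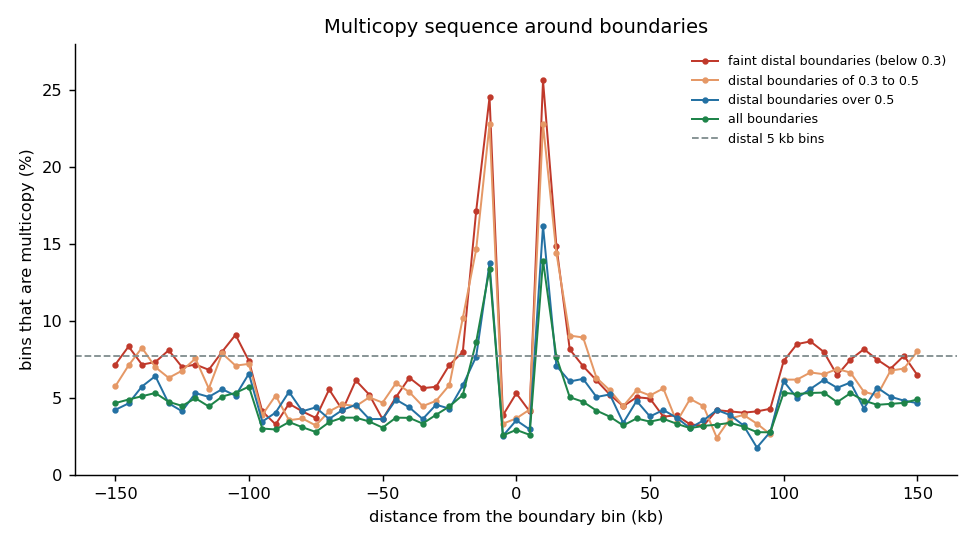
Percent of 5 kb bins that are multicopy (y axis) against distance from the boundary bin in kb (x axis), for faint distal boundaries, distal boundaries of 0.3 to 0.5, distal boundaries over 0.5 and all boundaries, with the share among distal bins as a dashed line. Every group has a peak at 10 kb on both sides and a step at 100 kb on both sides; the peaks of the faint distal boundaries reach 24.5 and 25.6%.

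The same shape stood in the other boundaries of the list at a lower height. Distal boundaries of 0.3 to 0.5 came close, with 22.8% multicopy bins at -10 kb and 22.8% at 10 kb. Other faint boundaries had 11.8 and 11.7% there. Distal boundaries over 0.5 had 13.7 and 16.2% multicopy bins at -10 and 10 kb, 3.54% in the own bin, 3.90% from 35 to 95 kb and 5.29% from 100 to 150 kb. The peak and the step were thus present over the whole list. The peak of the faint distal boundaries stood a little above that of distal boundaries of 0.3 to 0.5. The caller's window and its filter on poorly covered bins could not be read from the labels (not given in the sources used here). Whether read placement in multicopy bins, or the difference between the strain of the cells and the reference genome, has a part in these positions was not tested.

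The repeated blocks at these bins were long. Blocks at multicopy bins elsewhere were not measured, so their length is not read as particular to faint distal boundaries. Over the 978 multicopy bins at 10 to 15 kb from faint distal boundaries, the soft-masked block that covered the bin (lower-case sequence in the reference, joined over gaps of at most 100 bases) had a median length of 7.20 kb, with an interquartile range of 6.51 to 10.4 kb. In 919 of them (94.0%) it was 5 kb or longer. These values are by bin, so a long block over neighbouring bins was counted once for each bin. Soft-masked sequence made up 49.5% of the bins at -10 kb and 49.3% at 10 kb, 41.2% of the boundary bin and 36.4% of distal bins.

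The share in faint distal boundaries exceeded those in distal bins and in distal boundaries over 0.5 on every chromosome analysed. The share with a multicopy bin at 10 to 15 kb ran from 34.3 to 72.3% over the 20 chromosomes and exceeded the share in distal bins, which ran from 14.3 to 36.5%, on 20 of 20. It also exceeded the share in distal boundaries over 0.5 on 20 of 20. Against distal boundaries of 0.3 to 0.5 the order varied by chromosome. Their share was the higher on chromosomes 3 (59.09 against 49.43%), 9 (45.71 against 34.29%) and 13 (42.11 against 40.0%). The same held on chromosomes 17 (51.85 against 42.55%), 18 (48.65 against 42.86%) and X (68.67 against 67.57%). On all other chromosomes the share in faint distal boundaries was the higher.

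**Figure D2:**
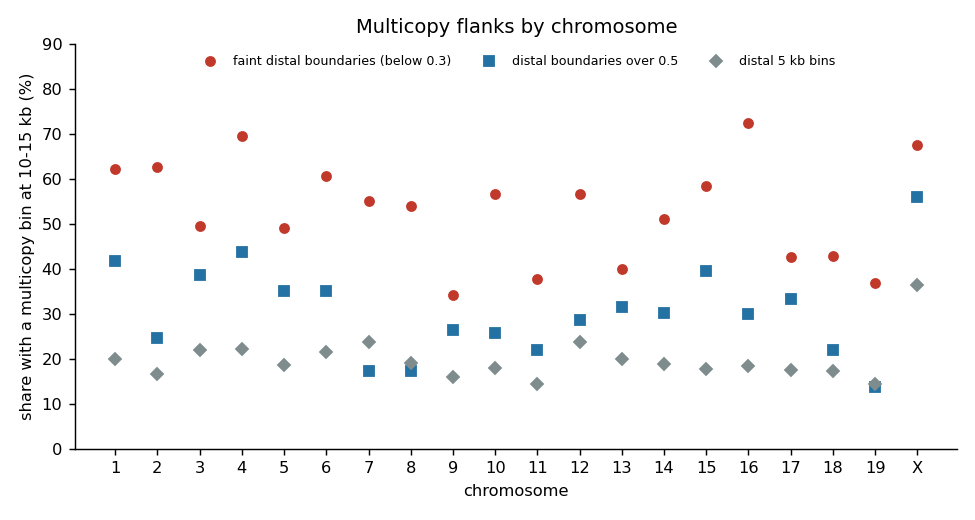
Share (y axis, percent) of faint distal boundaries, distal boundaries over 0.5 and distal 5 kb bins with a multicopy bin at 10 to 15 kb, for each of 20 chromosomes (x axis). The points of the faint distal boundaries, from 34.3 to 72.3%, lie above both others on each chromosome.

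The share changed with strength across the whole distal list, and not at the limit of 0.3. It was 56.4% (interval 52.6 to 60.2%, n = 693) from 0.2 to 0.25, 54.3% (n = 497) from 0.25 to 0.3 and 54.9% (n = 315) from 0.3 to 0.35. Above that it was 50% up to 0.4 (119 of 238), 43.6% up to 0.5, 32.3% up to 0.75 and 26.6% up to 1. Boundaries of 1 to 1.5 had 34.9% (n = 284) and those over 1.5 had 34.0% (n = 194), so the decline ended above 0.75. Just inside the limit of 0.3 the strengths were 0.2989, 0.2990, 0.2993, 0.2995 and 0.2996, and just outside it 0.3003, 0.3004, 0.3005, 0.3006 and 0.3007. The limit thus cuts a continuous range.

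**Figure D3:**
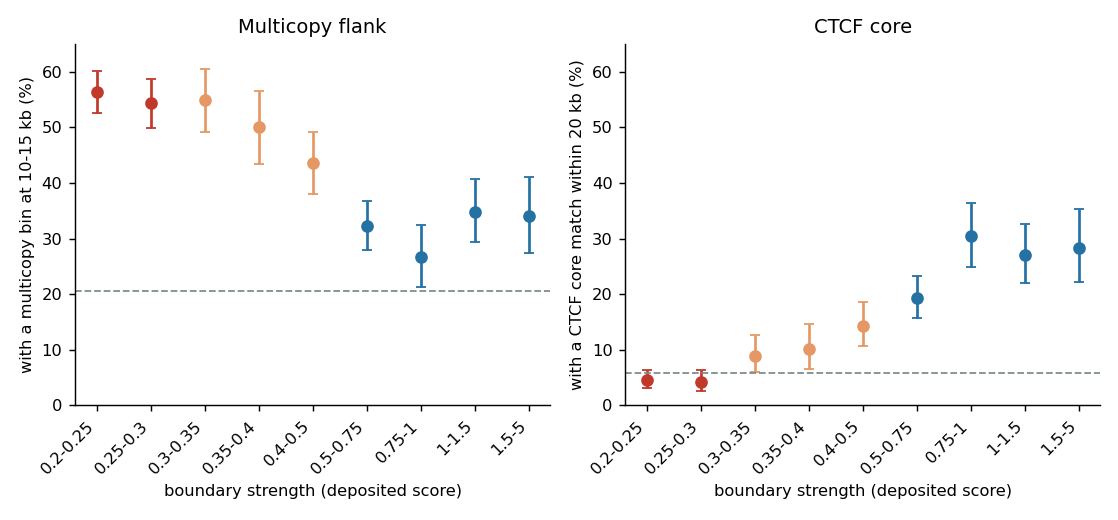
Share of distal boundaries (y axis, percent) with a multicopy bin at 10 to 15 kb (left) and with a CTCF core match within 20 kb (right) in classes of boundary strength (x axis); bars are 95% exact Clopper-Pearson intervals and the dashed line is the share in distal bins. The left share falls from 56.4% in the lowest class to 26.6% at 0.75 to 1, and the right share rises from 4.62 to 30.4% over the same classes.

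Matches to the CTCF core were fewer near faint distal boundaries than near stronger distal ones. The core was searched as the 14-position consensus of the central CTCF motif, exactly and on both strands. A match lay within 20 kb of 53 of the 1190 (4.45%, interval 3.35 to 5.79%), against 5.9% of distal bins. The share was 11.2% in distal boundaries of 0.3 to 0.5 (9.20 to 13.5%), 25.1% in distal boundaries over 0.5 (22.7 to 27.7%), 13.9% in other faint boundaries and 20.3% in all boundaries. The order against distal bins turned with the setting: within 10 kb a match lay near 3.28% of faint distal boundaries and 3.07% of distal bins, and with 1 mismatch allowed within 20 kb near 54.3 and 51.8%. Distal boundaries over 0.5 had 15.8 and 76.1% there. With exact matches within 20 kb, the share was lower in faint distal boundaries than in distal boundaries over 0.5 on 20 of 20 chromosomes, and lower than in distal bins on 13 of 20. A match in the boundary's own bin was found for 11 (0.924%), against 0.794% of distal bins. No match says only that these letters are not in the window, not that CTCF is not bound.

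Of the 11 boundaries with a match in their own bin, 5 of low strength are shown, because the 11 are the faint distal boundaries with a core closest to the centre. Each window has 60 bases of GRCm38.p6, written 5′ to 3′ on the strand of the motif, with the core in capitals.

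chr5:112642921-112642980, minus strand, between Sez6l and Myo18b: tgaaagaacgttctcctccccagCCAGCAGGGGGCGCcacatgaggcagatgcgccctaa
chr6:35381120-35381179, plus strand, between Fam180a and Mtpn: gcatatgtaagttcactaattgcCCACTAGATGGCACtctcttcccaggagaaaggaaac
chr13:53119891-53119950, plus strand, in Ror2: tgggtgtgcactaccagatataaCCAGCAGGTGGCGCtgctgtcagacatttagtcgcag
chr7:139303447-139303506, plus strand, between Pwwp2b and Inpp5a: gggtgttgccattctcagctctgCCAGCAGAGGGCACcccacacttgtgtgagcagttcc
chr2:142813211-142813270, minus strand, in Kif16b: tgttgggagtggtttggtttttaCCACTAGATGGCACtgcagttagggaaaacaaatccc

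The boundary at chr5:112640001-112645000 (strength 0.2046) lies between Sez6l, a neuronal membrane protein gene, and Myo18b, a myosin gene, with the core 0.45 kb from its centre. The boundary at chr6:35380001-35385000 (0.2098) also had a multicopy bin at 10 to 15 kb. Of the 11, 2 had such a bin and 9 had none. The boundary in Ror2, a receptor gene of Wnt signalling, had a strength of 0.2199 and that in Kif16b, a kinesin gene, 0.2415.

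Within 20 kb of faint distal boundaries there were 57 core matches in all. Of these, 35 pointed away from the boundary's centre and 22 toward it, which is 61.4% away (interval 47.6 to 74.0%). In distal boundaries of 0.3 to 0.5 it was 62.7% of 110 matches (53.0 to 71.8%), and in distal boundaries over 0.5 it was 64.3% of 364 (59.1 to 69.2%). At 57 matches the interval of the faint distal boundaries spans 50%. The share of matches in soft-masked sequence was 10.5% there and 11.8% of all 6562 matches on the chromosomes analysed.

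The multicopy bins and the CTCF cores stood mostly at different boundaries, and 12 of the 53 boundaries with a core had both. Among the 661 faint distal boundaries with a multicopy bin at 10 to 15 kb, 12 had a core within 20 kb (1.82%, interval 0.942 to 3.15%). Among the 529 without one, 41 had a core (7.75%, 5.62 to 10.4%). Distal bins with and without a multicopy bin at this distance had 4.66 and 6.23%. Distal boundaries over 0.5 had 15.6 and 29.6%. Without multicopy flanks, then, faint distal boundaries had a share of CTCF cores near that of distal bins, and below that of the stronger distal boundaries.

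The 2 kinds of faint distal boundary also differed in setting, in the same direction as distal bins where both were compared. Those with a multicopy bin had a median desert of 1520 kb, and those without 893.8 kb, where the desert is the interval between the nearest coding 5′ ends on both sides. The mean GC content over 25 kb was 38.8% with and 40.6% without. An annotated gene covered 11.9% of those with and 30.6% of those without. Outside every gene body lay 80.5% of distal bins with a multicopy bin and 65.2% without, and 78.9 and 56.4% of distal boundaries over 0.5. A desert of 1 Mb or more held 67.8% of faint distal boundaries with and 46.1% without, against 47.7 and 41.0% of distal bins. The gene and desert differences were thus not particular to faint distal boundaries. Their strengths overlapped, with a median of 0.240 with (interquartile range 0.216 to 0.267) and 0.244 without (0.221 to 0.268).

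The motif of EBF, the family of early B cell factors that act in olfactory neurons as regulators of olfactory receptor and other neuronal genes, was searched as its 10-letter palindromic consensus. It lay within 20 kb of 425 faint distal boundaries (35.7%, interval 33.0 to 38.5%). The share was 41.1% of distal bins, 41.0% of distal boundaries of 0.3 to 0.5 and 49.6% of distal boundaries over 0.5. Among faint distal boundaries without a multicopy bin at 10 to 15 kb it was 41.0%, against 42.8% of distal bins without one. With a multicopy bin it was 31.5%, against 34.3% of distal bins with one. Such a short motif has chance matches in many windows.

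The distance to coding 5′ ends was used to choose the boundaries, so it and desert length are given as a description. Distal boundaries over 0.5 and distal bins meet the same gene conditions. The nearest coding 5′ end lay a median of 306.9 kb away (range 50.2 to 2671 kb), and the desert had a median length of 1250 kb, against 449 kb for distal boundaries over 0.5 and 803.9 kb for distal bins. Per Mb of distal sequence, there were 0.461 faint distal boundaries in deserts up to 300 kb and 1.40 in deserts over 2400 kb, with 0.629, 0.919 and 1.22 in the classes between. Distal boundaries over 0.5 ran the other way, from 1.64 per Mb in the shortest class to 0.373 in the longest.

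Desert length moved with both sequence measures. In deserts up to 300 kb, 19.4% of faint distal boundaries (interval 12.5 to 28.2%, n = 108) had a multicopy bin at 10 to 15 kb, against 29.0% of distal boundaries over 0.5 and 16.6% of distal bins. In deserts of 600 to 1200 kb the shares were 60.1% (53.9 to 66.0%, n = 268), 27.8% and 21.8%. In deserts over 2400 kb they were 65.2% (59.1 to 70.9%, n = 267), 59.2% (46.8 to 70.7%, n = 71) and 23.7%. The higher share in faint distal boundaries than in the strong ones was therefore not present in the shortest class. In the longest class the intervals overlapped. From the shortest class to the longest, distal boundaries of 0.3 to 0.5 had 26.7, 40.9, 57.6, 58.9 and 63.8%. Faint distal boundaries had 19.4, 39.1, 60.1, 64.8 and 65.2%, and the intervals of both groups overlapped in every class. CTCF cores within 20 kb went from 13.9% of faint distal boundaries in the shortest class to 1.87% in the longest, and in distal bins from 10.8 to 2.39%. In distal boundaries over 0.5 they went from 29.8 to 9.86%.

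**Figure D4:**
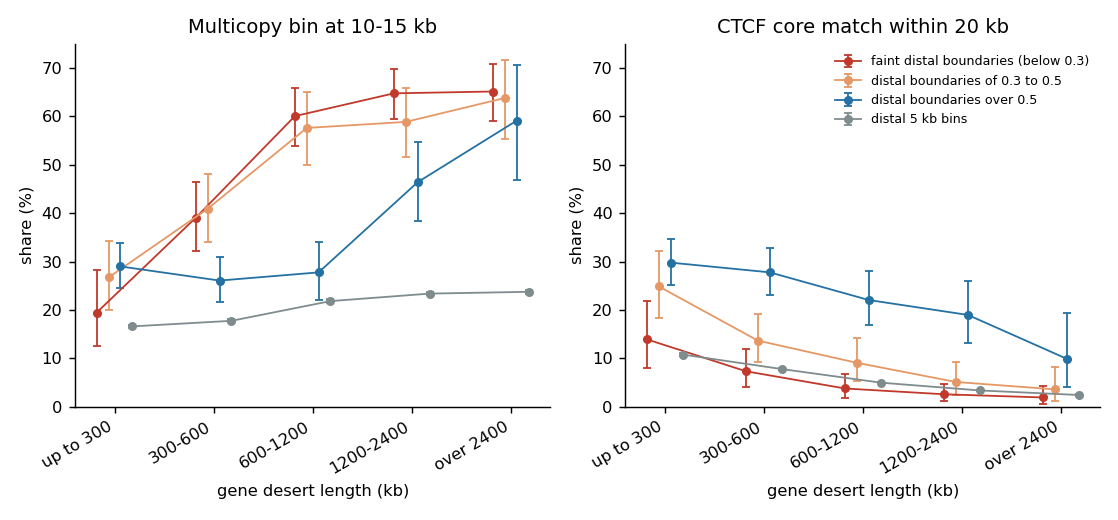
Share (y axis, percent) with a multicopy bin at 10 to 15 kb (left) and with a CTCF core match within 20 kb (right) in classes of gene desert length in kb (x axis), for faint distal boundaries, distal boundaries of 0.3 to 0.5, distal boundaries over 0.5 and distal 5 kb bins; bars are 95% exact Clopper-Pearson intervals. On the left, faint distal boundaries rise from 19.4 to 65.2% and those over 0.5 stay between 26.1 and 29.0% up to 1200 kb; on the right, faint distal boundaries follow the distal bins.

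The 10 boundaries farthest from a coding 5′ end lay in 6 deserts, and were picked by the distance that the rule itself uses. The boundary farthest from a coding 5′ end, at chr14:91140001-91145000 (strength 0.2347), lay 2671 kb from one, between the protocadherin genes Pcdh20 and Pcdh9, in a desert of 5419 kb. The next, at chr1:102235001-102240000 (0.2877), lay between Cntnap5b, a contactin-associated protein gene, and the cadherin gene Cdh20. The boundary at chr8:51335001-51340000 (0.2312) lay between Tenm3, a teneurin gene of synaptic partner matching, and Aga, a lysosomal enzyme gene. That at chr14:82370001-82375000 (0.2075) lay between Olfm4 and the protocadherin gene Pcdh17. All 10 farthest had no coding 5′ end closer than 1859 kb. The desert between Cntnap5b and Cdh20 held 3 of them, those between Pcdh20 and Pcdh9 and between Tenm3 and Aga 2 each, and 3 other deserts 1 each.

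Cadherins and protocadherins, adhesion proteins that sort neurites and synapses, were the nearest coding gene of 67 faint distal boundaries (5.63%, interval 4.39 to 7.10%), spread over 22 genes. The share was 3.36% of distal bins, 3.55% of distal boundaries of 0.3 to 0.5 and 1.18% of distal boundaries over 0.5. One boundary of strength 0.2539 lay in Cdh10, a boundary of 0.2982 lay 3.08 kb from Cdh18, and a boundary of 0.2929 lay 10.4 kb from Pcdh19. Long deserts held more faint distal boundaries per Mb, and whether desert length has a part in these shares was not tested.

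Other synaptic adhesion genes were nearest to 47 faint distal boundaries (3.95%), against 2.71% of distal bins and 0.674% of distal boundaries over 0.5. Examples were Cntn3, a contactin gene (strength 0.2381), and Lrfn5 (0.2590), both with the boundary in the gene. Axon guidance genes were nearest to 29 (2.44%), against 1.91% of distal bins, among them Plxnc1, a semaphorin receptor gene (0.2470), and Ntng1, a netrin family gene (0.2600), both with the boundary in the gene. Potassium channel genes were nearest to 13 (1.09%) against 1.24% of distal bins, glutamate and GABA receptor genes to 13 against 1.14%, and homeobox, Sox and Fox factor genes to 20 (1.68%) against 1.97%. In the potassium channel gene Kcnb2 the strength was 0.2295, in the glutamate receptor gene Gria3 0.2228 and in Tshz2, a homeobox zinc finger gene, 0.2178. Zinc finger genes of the Zfp series were nearest to 13 (1.09%), against 1.27% of distal bins and 1.85% of distal boundaries over 0.5. Vomeronasal receptor genes were nearest to 4 (0.336%) against 0.355% of distal bins, and olfactory receptor genes to 2 (0.168%) against 0.230%. Defensin genes were nearest to 0, against 0.0400% of distal bins, and keratin genes to 0 of either. The pattern for immunoglobulin and T cell receptor segments took 1 gene, Trdn, which encodes the muscle protein triadin and is no such segment.

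Of the 1190 faint distal boundaries, 605 (50.8%) had another faint distal boundary as the adjacent boundary of the list. The same share was not computed for other groups. It therefore does not say whether faint distal boundaries adjoined each other more often than other boundaries did. There were 585 on their own, 154 runs of 2, 51 of 3, 18 of 4, 12 of 5 and 2 of 6. The first run of 6 covered 1.24 Mb at chr5:59300001-60540000, in the desert of 4091 kb between the protocadherin gene Pcdh7 and G6pd2, with strengths from 0.2063 to 0.2854. A multicopy bin lay at 10 to 15 kb from 4 of the 6. The other run of 6 covered 1.61 Mb at chr8:51335001-52950000, between Tenm3 and Aga, with strengths from 0.2312 to 0.2989 and a multicopy bin at 5 of the 6. A run of 5 covered 1.87 Mb at chr11:91010001-92880000, around Kif2b, a kinesin gene, with strengths from 0.2166 to 0.2891 and a multicopy bin at 2 of the 5.

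The nearest other boundary lay a median of 205.0 kb away (interquartile range 145.0 to 295.0 kb), against 225.0 kb for distal boundaries over 0.5 and 160.0 kb for other faint boundaries. Of the 2375 adjacent boundaries, 36.0% were over 0.5, against 45.1% for distal boundaries over 0.5, 59.4% for other faint boundaries and 50.7% over the whole list. Below 0.3 were 35.9% of the boundaries adjacent to faint distal ones, 36.7% of those adjacent to distal boundaries of 0.3 to 0.5, 27.8% for distal boundaries over 0.5 and 25.4% over the whole list. Faint neighbours were thus about as frequent around the distal boundaries of 0.3 to 0.5.

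Most of these boundaries lay outside annotated genes. Of the 1190, 949 lay outside every gene body (79.7%, interval 77.4 to 82.0%), against 68.3% of distal bins, 73.6% of distal boundaries of 0.3 to 0.5 and 63.6% of distal boundaries over 0.5. The 160 in coding genes were spread over 157 genes, of which 3 held more than 1. The longest hosts were Dnm3, which encodes dynamin 3 (495.6 kb, strength 0.2314), Aff3 (487.6 kb, 0.2218), Slc25a21, a mitochondrial carrier gene (484.8 kb, 0.2480), Skint6 (482.4 kb, 0.2610), Myo16, a myosin gene (480.8 kb, 0.2726) and Lrrc7, a postsynaptic scaffold gene (479.3 kb, 0.2323). The boundary in Dnm3 had a CTCF core 5.73 kb from its centre.

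Long non-coding RNA genes started near few of them. Such a 5′ end lay within 20 kb of 95 (7.98%, interval 6.51 to 9.67%), against 10.1% of distal bins, 8.92% of distal boundaries of 0.3 to 0.5 and 13.6% of distal boundaries over 0.5. It lay in the own bin of 11 (0.924%), against 1.38% of distal bins. One of these was the 5′ end of Peg13, an imprinted non-coding RNA gene in an intron of Trappc9, with a boundary at chr15:72810001-72815000 of strength 0.2466. Others were 4932435O22Rik on chromosome 11 (0.2060), between Sdk2 and Rpl38, 4930440C22Rik on chromosome 1 (0.2075) and Gm12670 on chromosome 4 (0.2382), near Elavl2, which encodes a neuronal RNA-binding protein. Pseudogene 5′ ends lay within 20 kb of 142 (11.9%, 10.1 to 13.9%), against 14.3% of distal bins, 11.8% of distal boundaries of 0.3 to 0.5 and 16.5% of distal boundaries over 0.5.

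Olfactory receptor clusters, the gene arrays from which each olfactory neuron expresses 1 receptor, held nearly none. An olfactory receptor cluster was a run of at least 3 olfactory receptor genes with gaps of at most 1 Mb. It held 1 of the 1190 (0.084%, interval 0.00213 to 0.467%), and 0.077% of distal bins lay in one, so the gene conditions alone leave almost no cluster sequence. The boundary was at chrX:50070001-50075000 (strength 0.2019), 53.1 kb from Olfr1323 and 348.5 kb from Olfr1324. Word B lay there at offsets of -16.8, -9.12 and 17.2 kb.

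Chromosome X held 111 (9.33%, interval 7.74 to 11.1%), against 7.05% of distal bins, 9.50% of distal boundaries of 0.3 to 0.5 and 4.97% of distal boundaries over 0.5. Per Mb of distal sequence X had 1.20, and the 19 autosomes 0.876 ± 0.140 (SD over chromosomes), from 0.645 to 1.19, with none above X. X also had the highest share of distal bins with a multicopy bin at 10 to 15 kb, 36.5%. Among faint distal boundaries with a multicopy bin, 11.3% lay on X, against 12.5% of distal bins with one. Among those without, 6.81% lay on X, against 5.64%. The animals were of mixed sex, so the pooled map mixes cells with 1 and with 2 X chromosomes, and the part of this in the value was not tested.

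The sequence around the boundaries was poor in GC. Over 25 kb the mean GC content was 39.6% ± 3.19 (SD over 1190 boundaries), against 40.5% ± 3.55 in distal bins, 40.4% ± 3.36 at distal boundaries of 0.3 to 0.5 and 42.5% ± 3.61 at distal boundaries over 0.5. The mean was lower than at distal boundaries over 0.5 on 20 of 20 chromosomes and lower than in distal bins on 19 of 20. From the shortest desert class to the longest it was 42.8, 41.9, 40.1, 38.6 and 37.6%. Distal bins had 42.9, 42.1, 40.4, 38.8 and 37.6% in these classes, and distal boundaries over 0.5 had 43.7, 43.3, 41.6, 40.6 and 39.3%. Within each class the difference from distal bins was thus smaller than over all deserts together. Soft-masked sequence made up 43.8% ± 16.1, against 36.4% ± 15.3 in distal bins and 35.5% ± 15.7 at distal boundaries over 0.5. At distal boundaries of 0.3 to 0.5 it was 41.4% ± 16.3. DpnII sites, at which the chromatin was cut, numbered 2.68 ± 0.512 per kb, against 2.53 ± 0.471 in distal bins and 2.55 ± 0.485 at distal boundaries over 0.5. Distal boundaries of 0.3 to 0.5 had 2.64 ± 0.510 per kb. These differences are small beside the spread over boundaries, and the part of cutting density was not tested.

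The faintest of all lay just above 0.2, the lowest strength of the list. The strengths ran from 0.2001 to 0.2996, with a median of 0.242. The lowest was at chr17:81340001-81345000 (0.2001), 30.6 kb from Slc8a1, a sodium-calcium exchanger gene. Next came 4 boundaries of 0.2002: on chromosome 6 nearest to Lrrn1, on chromosome 17 in Fbxl17, on chromosome 3 nearest to P2ry1, a purine receptor gene, and on chromosome 19 nearest to Adra2a, an adrenergic receptor gene. Those of 0.2003 to 0.2005 lay near Gm10800, in Zfp423, near Scg2, near Nxph1, a neurexophilin gene, and near Trhde. Zfp423 encodes a zinc finger factor that binds the EBF proteins of olfactory neurons. None of these 10 had a CTCF core within 20 kb, the nearest being 91.9 kb away at Fbxl17. Such a core was rare in any case, at 4.45% of all faint distal boundaries and 5.9% of distal bins.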

How the data were processed

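In situ Hi-C of sorted mature olfactory sensory neurons gave 1 boundary list. The design text of the series states that the authors called boundaries on GRCm38, on a contact matrix that combines 2 replicates. The deposited strength is the authors' score per 5 kb boundary, without a stated scale. Not given in the sources used here: caller, window, mapper. Boundaries were annotated with GENCODE mouse release 21 and GRCm38.p6 sequence (Python 3.11.15, numpy 2.4.6, pandas 2.3.3, scipy 1.17.1, numba 0.67.0). Motif, distance, overlap and word-copy code was tested on simulated data. Distances run from the midpoint of the boundary bin, and multicopy bins and word shares were counted in whole 5 kb bins by the distance between bins. Distal bins are 5 kb bins without unknown bases that meet the gene conditions. With 1 pooled map, shares carry 95% exact intervals and no test was run. Nearby boundaries are not independent. The members, the 12 gene lists (symbol patterns) and the naming rule were chosen with earlier results of these data known. The naming rule took the 10 farthest, the 10 weakest, up to 15 with a CTCF core and up to 10 with a non-coding RNA 5′ end in the bin, the 3 longest runs, members in olfactory receptor clusters, the 10 longest hosts and up to 3 per list. Multicopy bins, words and their alternatives were chosen after seeing the data. Words were picked from boundaries outside chromosome 18 and then counted on all 20 chromosomes. Some items that the rule names are not reported here.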

Additional observations from a re-analysis of the deposited data

How the results depend on the processing

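No replicate could be left out, and no paired analysis was possible because the list comes from 1 pooled map. Of 81 alternative values, 51 stayed within the 95% interval of the reported value (for the number of members, within 1.5 times) and 30 moved, with no cause tested. A strength limit of 0.25 left 693 members. With a limit of 20 kb to coding 5′ ends, CTCF cores lay near 6.08% of members, 74.6% lay outside genes, 0.473% in olfactory receptor clusters, GC content was 40.1%, soft-masked sequence 42.8% and the multicopy flank share 51.0%. With 100 kb these were 3.14%, 84.2%, 0%, 39.2%, 45.1% and 59.5%. Windows of 10 and 50 kb gave 3.28 and 9.50% for CTCF and 4.03 and 16.9% for non-coding RNA 5′ ends, and 1 mismatch gave 54.3% for CTCF. Distal bins had 3.07, 13.5 and 51.8% for CTCF under these 3 settings, so the order of faint distal boundaries and distal bins turned with the 10 kb window and with 1 mismatch. With the 5′ ends of every coding transcript the share outside genes was 82.6% and GC content 39.4%. The share outside genes was 71.7% with long gene bodies kept and 86.6% counting coding bodies only. On autosomes soft-masked sequence was 42.8% and the cluster share 0%, which gaps of at most 200 kb also gave. In the boundary bin alone GC content was 39.2% and soft-masked sequence 41.2%. The multicopy flank share was 63.5% with bins over 30% multicopy, 44.96% over 70% and 62.9% with soft-masked bins over 70%, and distal bins then had 32.5, 13.1 and 31.6%, and distal boundaries over 0.5 had 38.2, 25.1 and 35.8%. The order of the 3 groups was the same under each of these definitions. Distal boundaries of 0.3 to 0.5 came closest to the faint distal ones, with 57.2, 40.5 and 55.4%. Contact depth, which limits how well a faint boundary is told from noise, is unknown here, and a score without replicates gives no error for a strength.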
